A study of Mus musculus with 12 samples.

Results

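Heme is built from glycine and succinyl-CoA by a chain of 8 enzymes, and the mRNA of 7 of them was examined here in mouse liver. They were Alas1, Alad, Uros, Urod, Cpox, Ppox and Fech, chosen by their place in the pathway, with earlier results of these data known. All 7 passed the authors' filter on low values, out of 11968 genes that did so and 48526 genes in the CPM table. The erythroid gene Alas2, which encodes a second form of the first enzyme, was followed beside them.

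The livers came from C57BL/6J mice, an inbred strain, that from an age of 8 to 10 weeks ate chow, plain or with simvastatin, a statin that inhibits HMG-CoA reductase. The diets lasted 4 weeks. Simvastatin was given at 0.1 g per kg, which the labels refer to body weight and the study's methods to food weight. The labels also give the chow of the chow-fed mice the formulation code that the methods give to the simvastatin diet, so the groups were taken as the labels name them, chow or simvastatin. The groups were female chow, female statin, male chow and male statin, with 3 livers of different mice in each and 12 in all. No group carried an engineered allele, and apart from the diet the groups differed in sex.

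Heme synthesis starts and ends in the mitochondrion, with its middle steps in the cytosol. In hepatocytes the first step, catalysed by Alas1, limits the rate, and heme itself holds Alas1 down. The gene is known to respond to drugs through the nuclear receptors CAR and PXR, and to fasting through the coactivator PGC-1α. The liver places much of its heme in cytochrome P450 enzymes, while red blood cell precursors use Alas2 and place theirs in hemoglobin.

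Alas1 (aminolevulinate synthase, ENSMUSG00000032786) lies on chromosome 9 of GRCm38, 106233455 to 106248654. Alad (aminolevulinate dehydratase, ENSMUSG00000028393), which joins 2 molecules of aminolevulinate into a pyrrole, lies on chromosome 4 from 62509169 to 62519918. Uros (uroporphyrinogen III synthase, ENSMUSG00000030979), which closes the porphyrin ring, lies on chromosome 7 from 133686243 to 133710072. Urod (uroporphyrinogen decarboxylase, ENSMUSG00000028684) lies on chromosome 4 from 116989965 to 116994413. The remaining enzymes act in the mitochondrion. Cpox (coproporphyrinogen oxidase, ENSMUSG00000022742) lies on chromosome 16 from 58670292 to 58717636, Ppox (protoporphyrinogen oxidase, ENSMUSG00000062729) lies on chromosome 1 from 171275990 to 171281186, and Fech (ferrochelatase, ENSMUSG00000024588) inserts the iron. Exons of Alas1 share 465 bases with 4930500F10Rik, those of Cpox share 204 with Gpr15 and those of Ppox share 791 with B4galt3, in each case on the other strand. The libraries were strand-specific according to the labels, but the strand setting of the counting is not given in the sources used here, so reads in the shared bases cannot be assigned with certainty.

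RefSeq's table of promoters (GRCm38.p6, from 250 bases before to 50 after a start site) held windows for 6 of the 7 genes and for Alas2, and was searched on both strands for short motifs of factors known to act in heme synthesis or in liver. The motifs were GCATGCGC, the core of the motif of the mitochondrial biogenesis factor NRF1, the E-box CACGTG, the GATA motif GATAA and the nuclear receptor half-site AGGTCA. They are held by 2.71%, 7.15%, 25.4% and 16.3% of all 32851 windows. Matches of different motifs did not overlap in the windows searched. The 3 stretches of 30 bases below are shown because Alas1 alone among the enzymes held GCATGCGC, as 2 overlapping matches, and because Alad and Urod, which differed in their values, both held an E-box near a start site. They lie at chr9:106247906-106247935, chr4:62519920-62519949 and chr4:116994445-116994474, all on the minus strand, and capitals mark the motif.
Alas1: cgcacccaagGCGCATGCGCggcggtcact
Alad: ccgccccgccccCACGTGggcttgcgcttt
Urod: cactggatcggtCACGTGgttctcaatatg
The 250 bases before the start site of Cpox, at chr16:58669958-58670207 on the plus strand, are shown because Cpox had the smallest p-value of the 7 genes with statin. They hold 1 match of GATAA, read on the opposite strand and set in capitals, and no AGGTCA.
Cpox: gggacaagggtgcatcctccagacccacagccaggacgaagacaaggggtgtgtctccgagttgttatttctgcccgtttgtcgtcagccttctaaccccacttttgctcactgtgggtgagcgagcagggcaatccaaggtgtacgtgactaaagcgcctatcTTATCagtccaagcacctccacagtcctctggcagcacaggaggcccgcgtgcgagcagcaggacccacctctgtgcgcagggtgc
The half-site AGGTCA was found in the window of Alas2 and in none of the windows of the 6 enzymes in the table. Uros also held an E-box, 250 bases before a start site, and GATAA was also found in windows of Uros and Alas2. A match is a description of these letters and was not tested as a binding site.

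In each liver the counts over all genes summed to between 46066381 and 60419223, at which 3 counts amounted to between 0.0497 and 0.0651 CPM (the count relative to the library total), a limit that covers counting error only. These totals, read from the deposited values, are larger than the average read depth named in the methods of the study, and the sources used here do not explain the difference. Levels are given as CPM after TMM normalization, a scaling of each library by its trimmed mean log ratio to the others (factors between 0.924 and 1.05). Marker genes of hepatocytes summed to between 89301 and 170438 CPM, against at most 290.4 CPM for red blood cells and their precursors, 1036 for Kupffer cells, 332 for stellate cells, 256 for endothelial cells and 9.30 for cholangiocytes. In whole liver, fewer cells of a type and less RNA per cell cannot be told apart. The test was edgeR's quasi-likelihood F-test over all 4 groups fitted together, and adjusted p-values are Benjamini-Hochberg values over all genes tested.

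With statin, female livers had higher mean levels of Alas1 and Cpox mRNA and, by a smaller margin, of Alad, though 0 of the 7 enzymes passed the adjusted p-value in edgeR. In female chow livers Alas1 stood at 220, 166 and 351 CPM, and in female statin livers at 509, 439 and 676 CPM. The lowest statin liver lay above the highest chow liver, although the chow livers spanned more than a doubling among themselves. The means were 246 ± 94.97 and 542 ± 122 CPM (SD, n = 3), a 2.21-fold difference. Its log2 fold change was 1.14 (standard error 0.33, 95% interval 0.42 to 1.87, adjusted p = 0.219, edgeR).

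Cpox, which carries out the sixth step, was at 105, 84.9 and 87.0 CPM on chow and at 115, 165 and 235 CPM on statin in females. These groups did not overlap either, but the gap between them was narrow and the statin livers differed widely from each other. Its log2 fold change was 0.90 (standard error 0.21, 95% interval 0.44 to 1.35, adjusted p = 0.126, edgeR), rank 99 of all genes by p-value, where Alas1 had rank 266. Alad, the second enzyme, was at 109, 103 and 102 CPM on chow and at 124, 113 and 177 CPM on statin in females. The chow livers lay close together, and 1 statin liver stood well above the others. The log2 fold change was 0.40 (standard error 0.15, 95% interval 0.06 to 0.74, adjusted p = 0.378, edgeR), and 0.19 without that liver, female statin replicate 3.

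**Figure D1:**
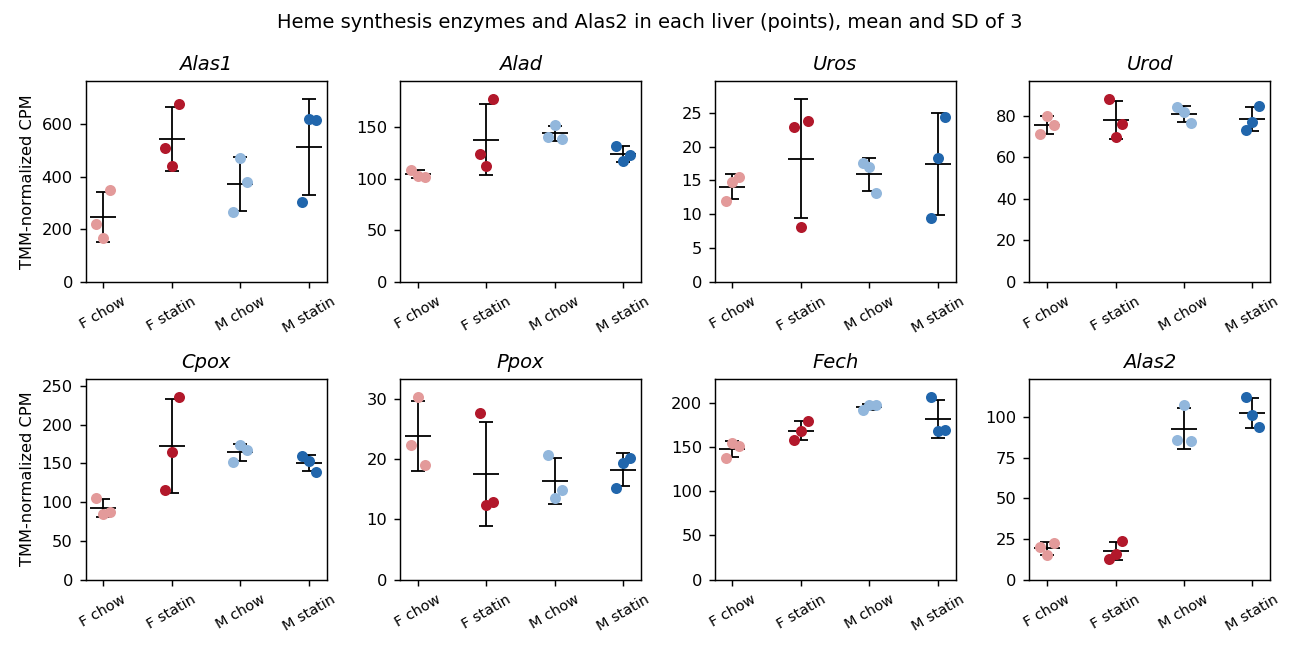
TMM-normalized CPM (vertical axes, from 0) of the 7 heme synthesis genes and Alas2 in each liver (points), with the mean and SD of 3 livers per group (F, female, M, male). Alas1, Alad, Cpox and Fech in female statin livers sit above every female chow liver, and Alas2 is below 24 CPM in every female and above 85 CPM in every male liver.

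Fech, the last enzyme, whose gene lies on chromosome 18 from 64452914 to 64490251, was at 137, 154 and 151 CPM on chow and at 158, 168 and 179 CPM on statin in females. All statin livers were above all chow livers, by a log2 fold change of 0.19 whose 95% interval of -0.07 to 0.45 included 0. Urod differed least, with means of 75.6 ± 4.24 and 78.0 ± 9.18 CPM (SD, n = 3) and a 95% interval of -0.21 to 0.30 for its log2 fold change of 0.04. Uros and Ppox, the enzymes with the fewest reads, overlapped between the groups. Uros ranged from 11.9 to 15.5 CPM in female chow and from 8.08 to 23.7 in female statin livers (log2 fold change 0.37, 95% interval -0.45 to 1.19). Ppox, from 18.9 to 30.3 CPM in female chow and from 12.4 to 27.5 in female statin livers, was the one enzyme with a negative log2 fold change, -0.44 (95% interval -1.08 to 0.21).

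In female liver 0 of the 7 passed the adjusted threshold of 0.05 in edgeR, where 0.100% of all genes did. Without adjustment, the rule of the study's volcano plots, 3 of 7 passed (Alas1, Alad and Cpox, all higher), against 10.5% of all genes, and 2 to 4 of 7 when each liver was left out. For 4 of 7 the statin livers lay wholly above the chow livers, against 12% of all genes whose groups did not overlap in either direction. The median log2 fold change of the 7 genes was 0.37, and that of all genes was 0.01. DESeq2 called Alas1 (adjusted p = 0.0315) and Cpox (adjusted p = 0.00561) in females, as did edgeR without the filter on low counts (adjusted p = 0.0207 and 0.0196). Genes outside the pathway also had smaller adjusted p-values in both fits. That of Acot1, a thioesterase gene, was 1.9e-10 in DESeq2 and 1.3e-06 in unfiltered edgeR, against 0.0306 in the edgeR fit reported. The share of all genes called by either fit is not given here, so these calls stand without a background. Without female statin replicate 1, the lowest of the statin livers in Cpox, edgeR called Cpox (log2 fold change 1.12, adjusted p = 0.0298). Leaving out that liver raises the difference, whereas leaving out female statin replicate 3, the highest at 235 CPM, lowers it. In some of the fits that left out a liver none of the 7 genes was called. The summed level of perivenous hepatocyte markers, the zone where Alas1 is known to be high, moved with these genes, at 4663 to 5878 CPM on chow and 6757 to 8658 on statin in females and at 10169 to 12017 and 8511 to 12900 in males. Of its 8 genes, Cyp2e1 and Cyp1a2 passed an unadjusted p-value of 0.05 in females. Cyp2e1 made up most of the sum, at 3365 ± 286 CPM on chow and 5534 ± 1262 on statin in females (SD, n = 3), and the other 7 genes summed to 1627 to 2370 and 2033 to 2605 CPM, which overlapped. The sums of periportal markers, at means of 96917 and 123247 CPM, and of all hepatocyte markers, at 121423 and 151222 CPM, were also higher in female statin livers, with ranges that overlapped. Most of both sums was Alb, a gene of both lists, at means of 90906 CPM on chow and 117830 on statin in females. They therefore mainly follow that gene and not the other markers. Of the 10 hepatocyte markers, 2 were higher and 1 lower with statin in females at an unadjusted p-value under 0.05 in edgeR. The part of zonation or of hepatocyte content in the result was not tested.

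In males 0 of the 7 enzymes passed either threshold. Alas1 was at 265, 469 and 381 CPM in male chow and at 303, 618 and 617 CPM in male statin livers. A pair of male statin livers lay above every chow liver, and the other lay within the chow range. On the log2 scale this was a difference of 0.46 ± 0.33 (standard error), with an adjusted p of 1.00 in edgeR and a 95% interval of -0.25 to 1.18 that also holds the value seen in females.

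Cpox was at 152, 173 and 167 CPM in male chow and at 159, 153 and 139 CPM in male statin livers (log2 fold change -0.13, 95% interval -0.58 to 0.32). Alad was the one gene whose male groups did not overlap, and its male statin livers, at 132, 118 and 123 CPM, lay below the chow livers, at 141, 153 and 139 CPM. This difference was the opposite of that in females and did not pass (log2 fold change -0.22, 95% interval -0.55 to 0.12). Fech was at 192 to 198 CPM in male chow and at 168 to 207 CPM in male statin livers, and Urod at 76.7 to 84.1 and 73.3 to 84.7 CPM. Their log2 fold changes were -0.11 (95% interval -0.37 to 0.15) and -0.04 (95% interval -0.30 to 0.21). Uros and Ppox, at log2 fold changes of 0.13 and 0.16, had intervals that reached beyond 0.8 above and below -0.4.

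Among the 7 genes 0 passed in males at the adjusted p-value in edgeR, limma or DESeq2, and 0 at the unadjusted p-value in edgeR. In edgeR 0% of all genes passed the adjusted and 1.96% the unadjusted p-value, and 7.95% of all genes did not overlap between the male groups. The median log2 fold change of the 7 genes was -0.04 in males.

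**Figure D2:**
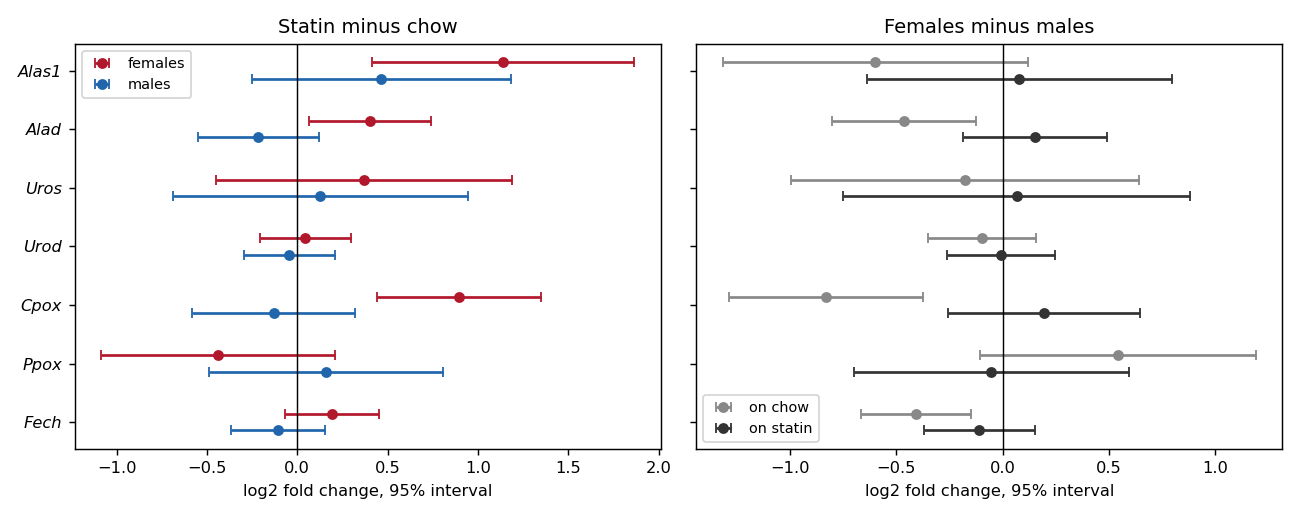
Log2 fold changes from the edgeR fit (points) with 95% intervals (bars) for the 7 genes, statin minus chow on the left and females minus males on the right. On the left the intervals of Alas1, Alad and Cpox in females lie above 0, and on the right those of Alad, Cpox and Fech on chow lie below 0, while every interval on statin includes 0.

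Whether the response differed between the sexes was tested as the interaction of sex and statin. For Cpox the female response exceeded the male response by 1.03 on the log2 scale (standard error 0.29, 95% interval 0.38 to 1.67, adjusted p = 0.337, edgeR). The difference for Alad was 0.62 (standard error 0.22, 95% interval 0.14 to 1.09, adjusted p = 0.470, edgeR). For Alas1, the gene with the largest female fold change, it was 0.68 with a 95% interval of -0.34 to 1.69, so a difference between the sexes was not shown. Thus 0 of 7 genes passed the adjusted p-value, as did 0% of all genes, and 2 of 7 passed the unadjusted p-value of 0.05, as did 8.01% of all genes.

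The exact permutation test on log2(CPM + 1), which needs no model of the spread, exchanged chow and statin within each sex in 400 ways. These exchanges assume no effect of statin in either sex. The test is therefore exact for that assumption and not for an equal effect in both sexes. The exact test gave p = 0.005 for Alad, the smallest value these exchanges allow, p = 0.015 for Cpox and p = 0.045 for Fech, and p = 0.335 for Alas1, all two-sided. A p-value under 0.05 in this exact test was reached by 3 of the 7 genes and by 7.17% of all genes. Adjusted over all genes, the exact p-values of Alad, Cpox and Fech were 0.447, 0.507 and 0.628. Within a sex, 3 livers against 3 cannot give an exact p-value below 0.1, the value that Alas1, Alad, Cpox and Fech had in females and Alad in males.

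**Figure D3:**
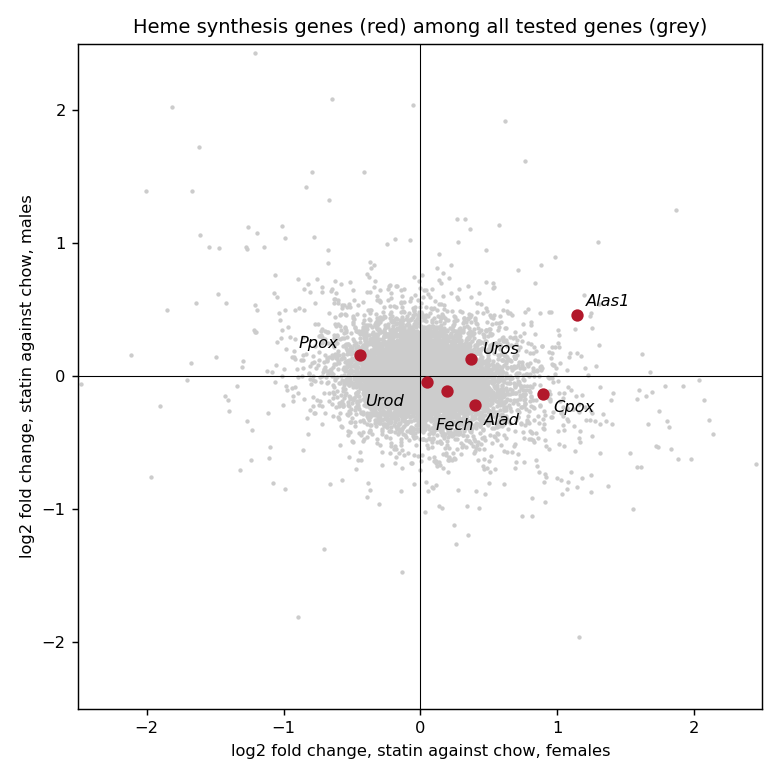
Log2 fold change with statin in females (horizontal) and in males (vertical) for all 11968 genes (grey, 6 lie outside the axes) and the 7 heme synthesis genes (red). Alas1 and Cpox lie at 1.14 and 0.90 on the female axis, to the right of most genes, and at 0.46 and -0.13 on the male axis.

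On chow, Cpox and Fech passed the adjusted p-value between the sexes, both lower in females, but both calls depended on single livers. For 3 of the 7 enzymes the groups did not overlap, a share near the 37.7% of all genes. Cpox was at 92.4 ± 11.2 CPM in females and 164 ± 10.95 CPM in males (SD, n = 3), and every male liver lay above every female one. Its log2 fold change, females minus males, was -0.83 (standard error 0.21, 95% interval -1.29 to -0.37, adjusted p = 0.0260, edgeR). Fech, at 148 ± 9.08 and 196 ± 3.50 CPM, was also lower in females (log2 fold change -0.41, standard error 0.12, adjusted p = 0.0492, edgeR). For Alad, at 105 ± 3.92 and 144 ± 7.45 CPM, the groups did not overlap but the test missed the threshold (log2 fold change -0.46, adjusted p = 0.0797, edgeR). Several marker sums also lay apart between the sexes on chow. Perivenous markers summed to 4663 to 5878 CPM in females and 10169 to 12017 in males. Of these, Cyp2e1 lay apart, at 3036 to 3553 and 8062 to 9296 CPM, while the sums of the other 7 genes overlapped, at 1627 to 2370 and 2107 to 2721 CPM. Stellate cell markers summed to 274 to 332 and 178 to 193, and endothelial markers to 213 to 228 and 140 to 197. Markers of red blood cells and their precursors summed to 173 to 202 and 230 to 248 CPM, a sum that includes Alas2, at 15.0 to 22.6 and 85.6 to 107 CPM. The part of these markers in the differences of the enzymes was not tested.

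The calls of Cpox and Fech depended on single chow livers. The call of Cpox was lost without female chow replicate 2 or 3 or any 1 of the male chow livers (adjusted p between 0.0583 and 0.0916), and that of Fech without any 1 of the 6 chow livers (adjusted p between 0.0832 and 0.133). With the replicate number as a block both were lost (adjusted p = 0.0553 and 0.102). Alas1, at 246 ± 94.97 and 372 ± 102 CPM, overlapped between the sexes on chow (log2 fold change -0.60, 95% interval -1.32 to 0.12). Ppox was the one enzyme with a higher mean in females, 23.8 ± 5.82 against 16.3 ± 3.80 CPM (log2 fold change 0.54, 95% interval -0.10 to 1.19). Of the 7 genes, 2 passed the adjusted p-value, against 10.4% of all genes, 3 passed the unadjusted one, against 24.9%, and 3 did not overlap, against 37.7%. All of these were lower in females.

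On statin 0 of the 7 genes passed either threshold between the sexes. Cpox averaged 172 ± 60.5 CPM in female and 150.0 ± 10.4 CPM in male statin livers, and Alas1 542 ± 122 and 513 ± 181 CPM (SD, n = 3). Their log2 fold changes, females minus males, were 0.20 (95% interval -0.26 to 0.65) and 0.08 (95% interval -0.64 to 0.80). In edgeR 0 of 7 genes passed the adjusted p-value (6.28% of all genes did, and 0 of 7 in limma and DESeq2) and 0 passed the unadjusted one (19.4% of all genes did), and the groups overlapped for all 7 (19.6% of all genes did not overlap). The comparisons on chow and with statin in females share the female chow livers, and those with statin in females and between the sexes on statin share the female statin livers.

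Per kilobase of the principal transcript, which allows levels to be compared between genes, the enzymes differed widely. In female chow livers Alad (83.8 ± 3.15 CPM per kb) and Alas1 (72.3 ± 27.9) stood highest and did not differ beyond the spread of Alas1, followed by Urod (50.8 ± 2.85). Cpox (29.8 ± 3.61) and Fech (22.5 ± 1.38) came next, and Ppox (13.1 ± 3.20) and Uros (7.99 ± 1.06) lay lowest (SD, n = 3). In female statin livers Alas1 (159 ± 35.8 CPM per kb) headed the order, ahead of Alad (111 ± 27.7) with ranges that overlapped, and Cpox (55.5 ± 19.5) stood beside Urod (52.4 ± 6.16). With the length of all merged exons the levels were lower, with Alad at 55.9, Alas1 at 39.8 and Urod at 29.2 CPM per kb in female chow livers, and the order of the 7 genes there was the same.

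The share of Alas1 in the summed level per kilobase of the 7 genes was 25.4% ± 7.68 on chow and 37.5% ± 1.16 on statin in females, and 28.5% ± 5.39 and 37.0% ± 9.39 in males (SD, n = 3). It lay between 18.7% and 33.8% in the female chow livers and between 36.2% and 38.6% in the female statin livers, so these groups did not overlap, while the male groups did.

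**Figure D4:**
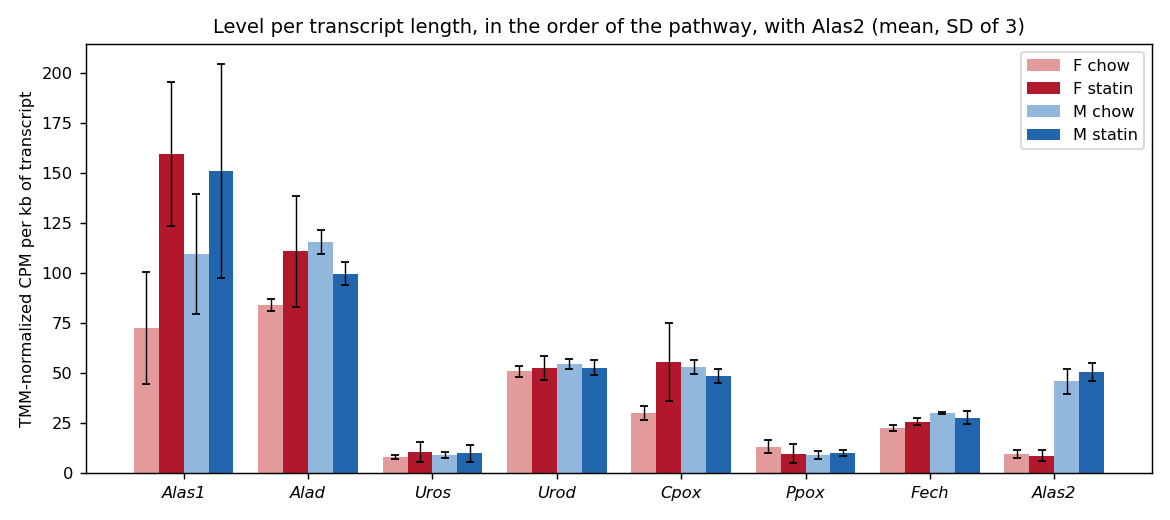
Mean level in TMM-normalized CPM per kb of the principal transcript (bars from 0, SD of 3 livers) in the order of the pathway, with Alas2 last. Alas1 and Alad are the tallest in each group, Uros and Ppox the shortest of the 7 enzymes, and Cpox in female chow livers (29.8) is lower than in the other groups (48.4 to 55.5).

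The livers of a group did not move together in all enzymes. Uros was at 22.8, 8.08 and 23.7 CPM in female statin and at 9.48, 18.2 and 24.4 CPM in male statin livers, so that its spread within these groups exceeded any difference between groups. Its lowest livers, female statin 2 and male statin 1, were those with the steepest rise of the level of all genes with transcript length, a slope of 0.10 and 0.11 in log2 level per doubling of length, where the livers with the lowest slopes, female statin 1 and male statin 3 (-0.11 and -0.09), had 22.8 and 24.4 CPM. The part of this trend in the spread of Uros was not tested liver by liver. With the trend removed from each liver, 0 of the 7 genes passed with statin in either sex at an adjusted p-value in edgeR. The same count was found without its removal, so it cannot show whether the trend matters for these genes.

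Alas2 differed between the sexes far more than any of the 7 enzymes and not detectably with statin. Female livers held 19.98, 15.0 and 22.6 CPM on chow and 12.9, 15.7 and 23.6 on statin, and male livers 86.3, 107 and 85.6 on chow and 113, 101 and 94.2 on statin. Every male liver was above every female liver. The log2 fold change, females minus males, was -2.28 on chow (standard error 0.22, adjusted p = 5.1e-05, edgeR) and -2.56 on statin (standard error 0.23, adjusted p = 1.8e-05, edgeR). With statin it was -0.14 in females and 0.14 in males, with 95% intervals of -0.61 to 0.33 and -0.32 to 0.60.

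Per kilobase, Alas2 reached 45.7 ± 6.07 CPM in male chow livers, below Alas1 (109 ± 30.1) and Urod (54.3 ± 2.52), and 9.41 ± 1.90 in female chow livers (SD, n = 3). Per kilobase of all merged exons the order of Alas2 and Urod turned, at 38.7 ± 5.14 and 31.2 ± 1.45 CPM in male chow livers. Exons of Alas2, on the X chromosome from 150547375 to 150570638, share 311 bases with Apex2 and 61 with Mir3620 on the other strand. Alas2 is also a marker of red blood cell precursors, so the other markers of that list were read in the same livers. The globin gene Hbb-bs, the most abundant of them, was at 104 to 109 CPM in female chow and 88.1 to 91.0 CPM in male chow livers. Of the 5 other markers that passed the filter (Hba-a1, Hba-a2, Hbb-bs, Hbb-bt and Klf1), none was lower in females on chow, with log2 fold changes between 0.08 and 0.23. The membrane genes Slc4a1, Epb42, Ermap and Tspo2 stayed at or below 1.21 CPM in every liver, and Epb42, Ermap and Tspo2 were at 0 in 4, 5 and 4 livers.

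**Figure D5:**
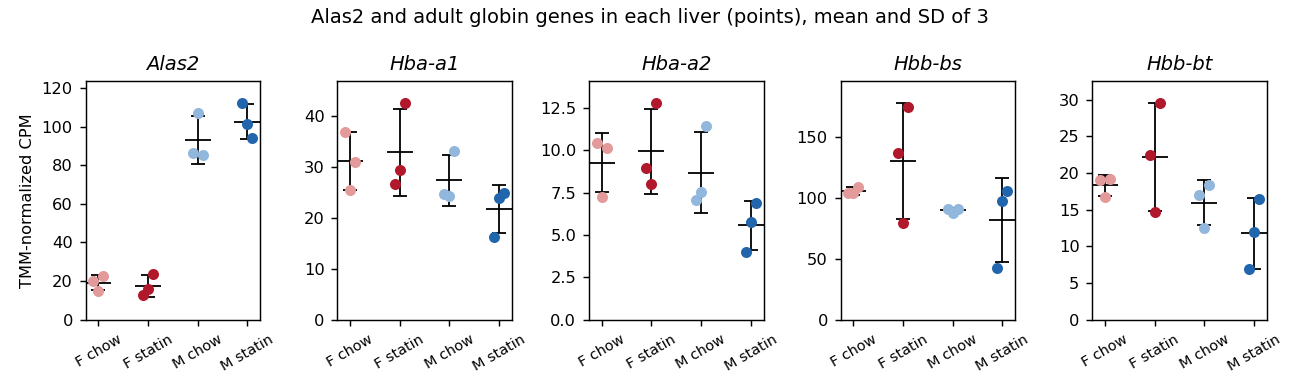
TMM-normalized CPM (vertical axes, from 0) of Alas2 and 4 adult globin genes in each liver (points), with the mean and SD of 3. The male livers are above the female livers for Alas2 alone, and Hbb-bs in male chow livers (88.1 to 91.0) lies below that in female chow livers (104 to 109).

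Genes that act on the pathway were read from companion lists. Of 19 known regulators of Alas1 that were tested, 1 was higher and 1 lower with statin in females at an unadjusted p-value under 0.05, and 0 passed in males or at an adjusted p-value (median log2 fold change 0.07 in females and -0.04 in males). This is 2 of 19 in females, beside 10.5% of all genes, and it was 1 without female chow replicate 2 or female statin replicate 3 and 5 without female statin replicate 1 or 2. The higher one was Nr1i3, which encodes CAR, at 128 ± 24.2 CPM in chow-fed and 296 ± 147 CPM in statin-fed females (SD, n = 3). This is a log2 fold change of 1.21 (95% interval 0.52 to 1.90, adjusted p = 0.177, edgeR), and the response of females exceeded that of males by 1.54 (adjusted p = 0.347, edgeR). The lower one was Ppargc1b, a coactivator (log2 fold change -0.54, adjusted p = 0.432, edgeR). Ppargc1a, which encodes PGC-1α, differed by -0.23 in females (95% interval -0.66 to 0.20), Nr1i2, which encodes PXR, by 0.18 (95% interval -0.12 to 0.48), and the repressor Nr1d1 by -0.55 (95% interval -1.12 to 0.02).

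Of 22 genes of heme and porphyrin transport and iron supply, 1 passed the unadjusted p-value with statin in females and 0 in males, with a median log2 fold change of -0.05 in females and 0.00 in males, where 10.5% and 1.96% of all genes passed. The count in females ranged from 0 to 3 when each liver was left out. It was Flvcr2, a transporter of the heme exporter family, at 4.54 ± 1.63 and 9.05 ± 4.39 CPM in female chow and statin livers (log2 fold change 1.00, adjusted p = 0.346, edgeR). Abcb6, a porphyrin transporter, differed by 0.43 in females (95% interval -0.07 to 0.92). Between the sexes on chow 2 of the 22 passed the adjusted p-value, against 10.4% of all genes. They were Abcg2, which exports porphyrins among other substrates, and Abcb10, a mitochondrial transporter, both lower in females, with log2 fold changes of -0.89 (adjusted p = 0.0029) and -0.57 (adjusted p = 0.0084) in edgeR.

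Of 10 genes of heme breakdown and scavenging, 0 passed with statin in either sex at an adjusted or unadjusted p-value in edgeR, beside 10.5% of all genes in females and 1.96% in males at the unadjusted one. The median log2 fold changes were 0.06 in females and -0.06 in males. Hmox1, the inducible heme oxygenase, averaged 26.2 ± 3.30 CPM on chow and 22.4 ± 6.25 CPM on statin in females (SD, n = 3). The log2 fold change was -0.23 with a 95% interval of -0.80 to 0.35, and in males its log2 fold change was 0.02. Between the sexes on chow 1 of the 10 passed the adjusted p-value, against 10.4% of all genes, namely Hpx, the plasma heme carrier hemopexin, which was higher in females (log2 fold change 0.90, adjusted p = 0.0045, edgeR).

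The list of liver hemoproteins, the users of heme, held 35 genes, counting Por, their reductase partner, which is not itself a hemoprotein. Of the 35, 12 were higher and 0 lower with statin in females at the unadjusted p-value, and 0 passed the adjusted one. The median log2 fold change was 0.24. Over all genes 10.5% passed the unadjusted p-value. The count of 12 fell to 5 without female chow replicate 2 or without female statin replicate 3, and was 7 with each sex fitted alone. The smallest p-values were those of Cyp7a1, the rate-limiting enzyme of bile acid synthesis (log2 fold change 2.45, adjusted p = 0.0951), Cyp4a31, a fatty acid hydroxylase (1.98, adjusted p = 0.0956), and Cyp2e1 (0.72, adjusted p = 0.211), all in edgeR. Of these, Cyp7a1 varied most between livers, at 55.8 ± 10.3 CPM in chow-fed and 305 ± 273 CPM in statin-fed females (SD, n = 3). In males 0 of the 35 were higher and 1 lower, Cyp3a11 (log2 fold change -0.60, adjusted p = 1.00, edgeR), with a median of -0.10. Cyp2b10, the classical target of CAR, averaged 8.18 ± 3.46 CPM on chow and 7.06 ± 3.26 CPM on statin in females (log2 fold change -0.21, 95% interval -1.24 to 0.81).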

How the data were processed

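RNA of 12 livers was sequenced as poly(A)-selected, strand-specific libraries. Per the labels' processing notes, the authors used STAR 2.4.1a, HTSeq and edgeR 3.28.1 with GRCm38, and they deposited CPM values before any filter and a table of counts described as filtered and normalized. All values of the count table were whole, 100% of the CPM values were whole reads (within 0.01) and 0 counts differed from the reads so recovered, so the table was used as raw counts. Every gene in it exceeded 1 CPM in 6 or more livers.

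Groups were taken from the labels. edgeR 4.0.16 (R 4.3.3) fitted quasi-likelihood models with TMM factors, 4 groups and no covariate (common dispersion 0.0380), two-sided. A call is an adjusted or, where stated, an unadjusted p-value under 0.05. Exact permutation tests used log2(CPM + 1), in 20 splits within a sex. limma 3.58.1, DESeq2 1.42.0, library size alone, other size factors, other filters, fits by sex or diet, the replicate block, a length correction, another pseudocount and leaving out each liver were alternatives. Levels per kb of merged exons were added after seeing the data. The methods were tested on simulated data. Positions, lengths and overlaps are from GENCODE vM21, which may differ from the authors' annotation, and 99.8% of genes had a symbol. Named are all members, Alas2 and, in companion lists, genes past the adjusted p-value, else up to 3 with the smallest unadjusted p-values per sex, plus a few regulators and markers. The sex differences of transport and breakdown genes were named after their values were seen. The members and lists were chosen with earlier results of these data known. The pathway has 8 enzymes, and 1 of them is not reported here. Tests and figures were made in Python 3.11.15 (pandas 2.3.3, scipy 1.17.1, numpy 2.4.6, matplotlib 3.10.9).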

Additional observations from a re-analysis of the deposited data

Results flagged for a closer look

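For 3 of the 7 genes female and male responses to statin were apart at an unadjusted p-value under 0.05 in the exact permutation test (two-sided, 12 livers), as they were for 7.17% of all genes. The exchanges of this test assume no effect of statin in either sex, so it is not exact for an equal effect in both. By this exact test on the log2(CPM + 1) scale, the female response exceeded the male response by 0.58 for Alad (0.37 in females and -0.21 in males, p = 0.005), by 0.96 for Cpox (0.83 and -0.13, p = 0.015) and by 0.30 for Fech (0.19 and -0.11, p = 0.045). None passed when the exact p-values were adjusted over all genes (0.447, 0.507 and 0.628) or at the adjusted p-value of edgeR's interaction (0.470, 0.337 and 0.773), whose 95% interval for Fech was -0.07 to 0.66. The value of Fech was 0.25 with p = 0.055 in the exact test on CPM without TMM factors.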

How the results depend on the processing

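With statin in females the count of heme synthesis genes called was 0, and 2 with DESeq2 and with no filter on low counts. Leaving out each liver gave 0 to 1. On chow between the sexes it was 2, and 1 with no filter on low counts and with the transcript length correction, 0 with the replicate block, and 0 to 3 when each liver was left out. At the unadjusted p-value, leaving out a liver gave 2 to 4 with statin in females (3 with all livers), 0 to 1 in males, 3 to 5 between the sexes on chow and 0 to 2 on statin, and no filter gave 5 on chow. Without TMM factors the exact test for Fech gave 0.25 (p = 0.055) and the difference of Uros between the sexes on statin was -0.067. Females minus males on statin, library size alone gave -0.025 for Alas1 and -0.030 for Uros, and the stricter filter 0.0090 for Urod. Leaving out each liver also turned the sign of small log2 fold changes. These were, with statin, Urod (-0.045 to 0.12) and Alas2 (-0.41 to 0.041) in females, Uros (-0.20 to 0.42) and Urod (-0.10 to 0.0025) in males, and Uros (-0.053 to 0.58) and Urod (-0.010 to 0.15) in the interaction. Between the sexes on statin they were Alas1 (-0.19 to 0.24), Alad (-0.068 to 0.26), Uros (-0.23 to 0.40), Urod (-0.11 to 0.051), Cpox (-0.10 to 0.41) and Ppox (-0.54 to 0.13). The cause was not tested. Over all genes, the alternatives other than leaving out a liver gave 0 to 270 calls in females (12 in the fit reported, and 0 to 75 when each liver was left out), 0 to 4 in males (0), 0 to 122 in the interaction (0), 901 to 2151 between the sexes on chow (1250) and 292 to 1284 on statin (751). Same-numbered livers are different mice, and their deviations from the group means had a mean correlation of -0.109 over 18 pairs, against 0.0577 over 36 pairs of different numbers, so the numbers were not read as pairs. The replicate block changed no other count of the 7 genes at an adjusted p-value. Among members whose sign held, the log2 fold change in females ranged from 0.19 to 0.52 for Alad, from 0.15 to 0.72 for Uros and from -0.91 to -0.22 for Ppox when each liver was left out. With 3 livers per group, differences within the wide intervals of Uros and Ppox were not detectable.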

Other observations

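Other lists of genes were read in the same livers, in which 10.5% of all genes passed an unadjusted p-value under 0.05 with statin in females and 1.96% in males. Of 17 tested targets of PPAR-alpha, the receptor that turns on fatty acid oxidation, 13 were higher with statin in females at an unadjusted p-value under 0.05 and 0 lower, with a median log2 fold change of 0.91. Of these, 3 rose at an adjusted p-value under 0.05 in edgeR, namely Acot1, an acyl-CoA thioesterase (log2 fold change 2.14, adjusted p = 0.0306), Pex11a, a peroxisome division factor (0.99, adjusted p = 0.0382), and Slc27a1, a fatty acid transporter (1.13, adjusted p = 0.0382). These calls depended on single livers. Of 12 fits that each left out 1 liver, Acot1 passed in 5, Pex11a in 2 and Slc27a1 in 3 (adjusted p up to 0.109, 0.244 and 0.144, edgeR), and all were lost without female chow replicate 2, female statin replicate 3, any male chow liver or male statin replicate 2 or 3. With each sex fitted alone all were lost too, with the replicate block Pex11a and Slc27a1 were, and with library size alone Pex11a was (adjusted p = 0.0858, edgeR), while the log2 fold changes stayed above 0.9 in every one of these fits. In males 0 were higher and 2 lower at the unadjusted p-value (median -0.33), and 12 differed in the interaction, all with the larger value in females, but 0 at an adjusted p-value. Cyp4a14, a PPAR-alpha target and hemoprotein, averaged 441 ± 135 CPM on chow and 1132 ± 699 CPM on statin in females (SD, n = 3).

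Of 14 other targets of CAR and PXR, 0 were higher and 1 lower with statin in females (Gstm1, log2 fold change -0.48) and 0 higher and 1 lower in males (Cyp3a11), at the unadjusted p-value. Of 16 clock genes 1 was higher in females (Hlf, log2 fold change 0.49) and 1 in males (Ciart, 0.72). Over all genes 10.5% passed in females and 1.96% in males, and the shares of these short lists were not tested against them. The counts in females were not stable, with 0 to 3 for the targets of CAR and PXR and 1 to 5 for the clock genes when each liver was left out, and 5 for each list with no filter on low counts. For the clock genes 5 passed without female chow replicate 3 or female statin replicate 1, and 4 without female statin replicate 2 or with the replicate block.

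The genes whose levels were most like those of Alas1 over the 12 livers, on log2(TMM-normalized CPM + 1), were 2810414N06Rik (Pearson's r = 0.93, Spearman's rho = 0.88), Tldc1 (0.92 and 0.86), Tert (0.89 and 0.87), BC029722 (0.89 and 0.82) and Pus10 (0.88 and 0.88). For 6 of the other genes the most like were Coa3 for Uros (r = 0.98, rho = 0.89), Nudt6 for Urod (0.96 and 0.97), Tysnd1 for Cpox (0.95 and 0.96), Thoc6 for Ppox (0.94 and 0.91), Klkb1 for Fech (0.97 and 0.92) and Serpina1c for Alas2 (0.99 and 0.86). These are the highest of all genes tested and are given as a description, since the livers share their groups, depth and length trends.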
